A study of Mus musculus with 6 samples.

Results

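The interferon-stimulated genes are a set of 43 mouse genes chosen by name, among 18193 genes that the array annotation names by a probe set of their own. Each gene was represented by the brightest probe set mapped to its symbol alone, brightest by its mean over the 6 arrays. By this rule 41 of the 43 genes had a probe set and 40 passed a filter on low values, which kept probe sets whose mean was at or above that of the median probe set (an intensity of 143). The gene below it was Mx2. The probe set of Isg15 is shared with a second gene and was left out by the rule, and Ifi44 was not analysed here. The cells were bone marrow LSK cells, the fraction without lineage markers that displays Sca-1 and c-Kit and contains the hematopoietic stem and progenitor cells. They came from 3 adult mice (278, 279 and 281) of mixed 129-B6 background and genotype Mx1Cre;Ergkd/+;R26Y. Every mouse thus carried an Erg knockdown allele, a Cre recombinase under the promoter of the interferon-inducible gene Mx1, and at Rosa26 a stop-flanked gene for yellow fluorescent protein (YFP), which Cre switches on. The labels call the YFP-positive cells Erg-restored, to the wild-type level, and those without YFP Erg-knockdown, with a reduction of about 40%. Both populations were sorted from each mouse, giving 3 arrays per population. The labels used here name no Cre-inducing agent and no time since Cre acted. Because cells were sorted by YFP, Erg dose, recombination by Cre, YFP itself and any choice of cells by Cre cannot be told apart.

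Type I interferons bind a receptor built from IFNAR1 and IFNAR2. The receptor's kinases activate STAT2, which acts with IRF9 in a factor that binds interferon-stimulated response elements in the promoters of target genes. The targets encode sensors of viral RNA, proteins that block viral entry, translation and release, and regulators that strengthen or end the signal. Hematopoietic stem cells respond to interferon and are known to keep part of this program on without infection, and Cre under the Mx1 promoter is switched on by interferon or by double-stranded RNA.

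The response element is visible in the promoters of many members. RefSeq promoter windows of 300 bases (250 before and 50 after the transcription start, build GRCm38.p6) were matched to 33 of the 43 members. The core of the element, searched on both strands as GAAA, any 2 bases and GAAA again, occurred in 17 of these 33 genes (51.5%), against 3.99% of the 27025 genes with a window and 3.44% of the 32851 windows. The core of the gamma-activated site, TTCNNNGAA, which reads the same on both strands and was counted apart from the first motif even where they overlapped, occurred in 11 of the 33 members and in 9.55% of all genes. A match is a description of these letters and does not show binding. Shown here are stretches of 60 bases from 5 members, printed 5′ to 3′ on the gene's strand with every match to that core, on either strand, in capitals. They were picked because the values below turn on these genes: Ifit1, Rsad2 and Oas3 had the largest differences upward, and Ifit3 and Stat2 differed most between animals beside Mx1.
Ifit1, chr19:34640769-34640828, plus strand: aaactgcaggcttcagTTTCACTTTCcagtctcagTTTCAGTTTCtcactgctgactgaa
Ifit3, chr19:34583365-34583424, plus strand: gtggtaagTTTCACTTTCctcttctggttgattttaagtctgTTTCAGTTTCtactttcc
Rsad2, chr12:26456538-26456597, minus strand: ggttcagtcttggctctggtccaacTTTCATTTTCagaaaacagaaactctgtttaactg
Oas3, chr5:120777700-120777759, minus strand: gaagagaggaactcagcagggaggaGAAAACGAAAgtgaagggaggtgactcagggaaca
Stat2, chr10:128270251-128270310, plus strand: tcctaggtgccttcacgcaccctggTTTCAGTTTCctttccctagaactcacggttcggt
The Ifit1 and Ifit3 stretches hold 2 matches each and the others 1. Relative to the transcription start, the matches of Ifit1 begin at bases -104 and -85, that of Oas3 at -75 and that of Stat2 at -222.

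The 6 arrays gave linear intensities whose mean per array lay between 1034 and 1075, and no count stands behind an array value, so that the number of arrays limits the precision. Erg itself, the gene the labels speak of, read 2731, 2901 and 2659 in the restored-labelled and 2970, 2754 and 2706 in the knockdown-labelled cells at its brighter probe set (mice 278, 279 and 281 in this order, as in all lists of 3 values below). Its dimmer probe set read 1859, 1542 and 1686 against 1820, 1331 and 1570. At the dimmer probe set the knockdown-labelled array was the lower in each mouse, with a difference of -0.11 (95% interval -0.42 to 0.19), and at the brighter the populations overlapped. Neither showed a reduction of the labelled size, and which part of the transcript they read was not analysed here, so the populations are called knockdown-labelled and restored-labelled. Of 10 LSK markers, 8 had a probe set and all 8 passed the filter, among them Kit at 3972 to 5206. Ly6a, which encodes Sca-1 and is itself interferon-induced, was not analysed here. The restored-labelled array of mouse 279 stood apart with a 3′ over 5′ log2 ratio of 0.707 over actin and Gapdh controls, against 0.471 to 0.540 on the others. For several members the value without it is given beside the result.

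Most interferon-stimulated genes were read well above the filter in both populations and lay close together. On the log2(intensity + 16) scale, knockdown-labelled minus restored-labelled, 27 of the 40 tested members were higher and 13 lower, with a median of 0.044 against -0.00015 over all 10824 genes tested. The differences ran from -0.19 for Oas2 to 0.51 for Ifit1, and 21 of the 40 lay within 0.1 of 0. In limma with the mouse as a block, 0 of the 40 members reached an adjusted p of 0.05 (Benjamini-Hochberg over all genes), and so did 0% of all genes. At unadjusted p below 0.05 there was 1 member on the higher side, Oas3, and 0 on the lower side, where 3.96% and 1.88% of all genes stood. The smallest adjusted p of a member was 0.771, and in no alternative was it below 0.628.

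The data limit how large a change could have been missed. For 37 of the 40 members the 95% interval of the difference stayed inside a 1.5-fold change in either direction, compared with 74.9% of all genes. The 3 exceptions were Ifit1, Oas2 and Rsad2. Only the interval of Ifit1, from -0.14 to 1.16, reached beyond 2-fold. These intervals are relative to the scaling of the deposited values. With arrays centred on their medians, that of all genes moved to -0.052 and that of the members to -0.0081, with 19 members higher and 21 lower. The direction of the list's median thus depends on the scaling, and it lay above the median of all genes under both.

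**Figure D1:**
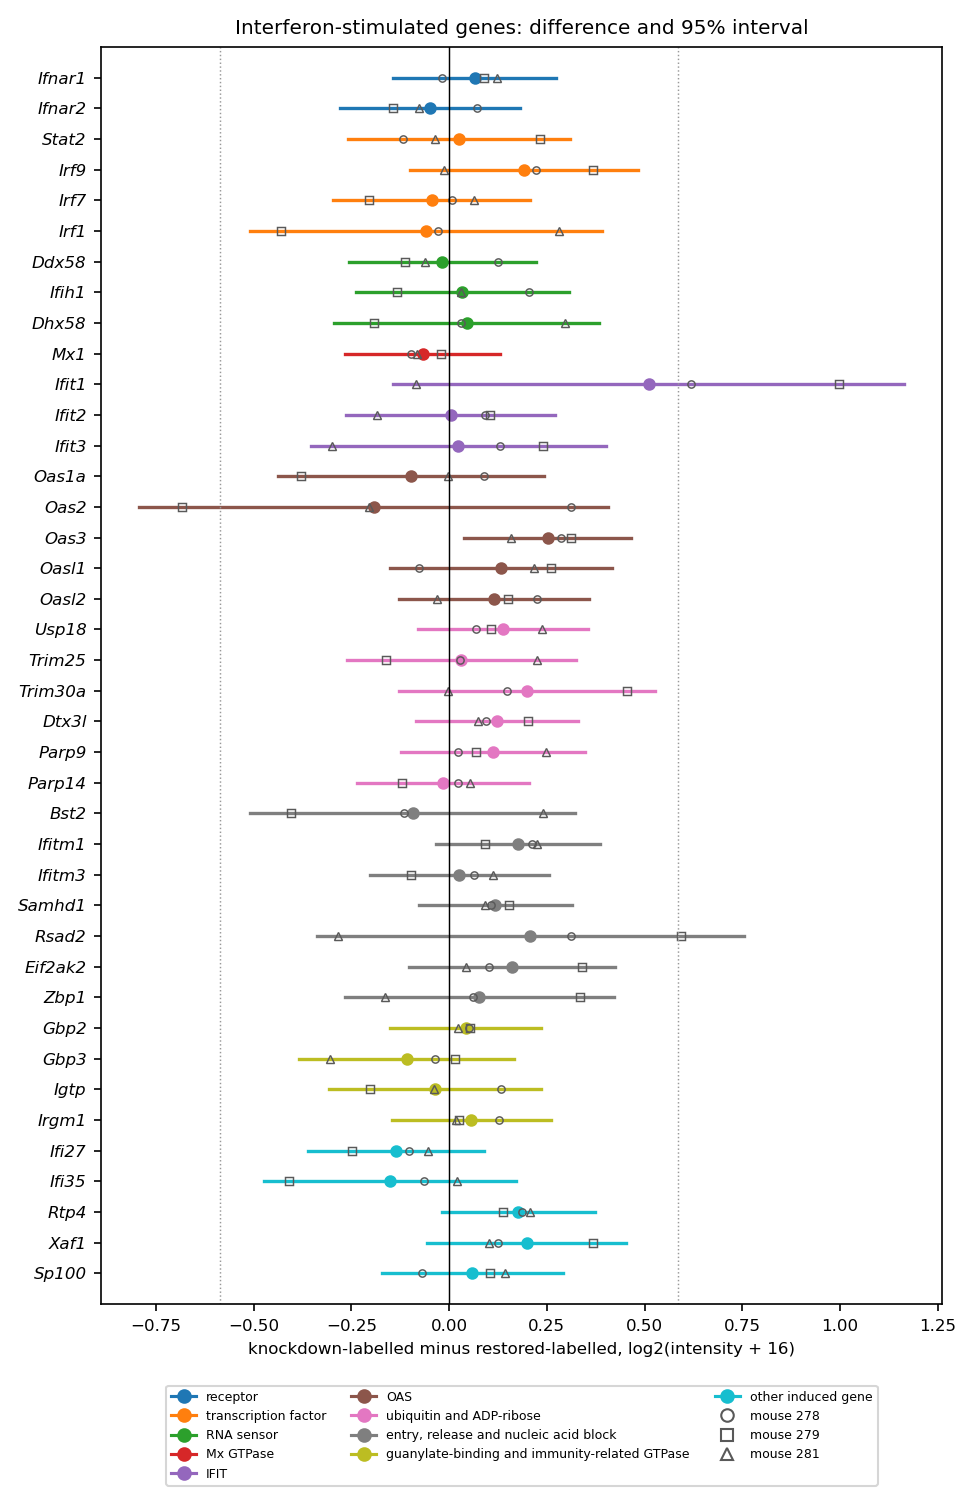
Difference between populations (horizontal axis, knockdown-labelled minus restored-labelled, log2(intensity + 16)) for the 40 tested members (vertical axis), coloured by role. Filled points are fitted differences with their 95% intervals over 3 mice, open symbols are the single mice, and dotted lines mark 1.5-fold; 37 of the 40 intervals lie between these lines.

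The receptor genes differed little. Ifnar1, which encodes the chain bound by TYK2, read 2952, 2697 and 2687 in restored-labelled and 2918, 2872 and 2927 in knockdown-labelled cells. Its difference was 0.065 ± 0.075 (SE, n = 3 mice; adjusted p = 0.819). Ifnar2, which encodes the chain bound by JAK1, read 1886, 1990 and 1761 against 1983, 1799 and 1669, a difference of -0.050 ± 0.083. The populations overlapped at both chains, and the single mice disagreed in sign.

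The factors that carry the signal were likewise without a called difference, and all 4 overlapped between populations. Stat2, a subunit of the factor that binds the response element, read 353, 474 and 415 against 324, 560 and 405, a difference of 0.026 ± 0.10. Its partner Irf9 read 1154, 1097 and 1230 against 1348, 1419 and 1218, with a difference of 0.19 ± 0.10 (adjusted p = 0.771) that was positive in mice 278 and 279. It was 0.10 without mouse 279 and 0.29 without mouse 281. Irf7, the interferon-induced factor that amplifies the response, read 635, 638 and 574 against 639, 551 and 600. The 95% interval of its difference, from -0.30 to 0.21, stayed inside 1.5-fold either way. Irf1, a factor induced by both interferon types, gave -0.028, -0.43 and 0.28 in the single mice, so its sign was not shared.

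The 3 cytosolic RNA sensors of the RIG-I family were closer still at their brightest probe sets. Ddx58, which encodes RIG-I, differed by -0.017 ± 0.086, Ifih1, which encodes MDA5, by 0.034 ± 0.097, and the regulator Dhx58 by 0.045 ± 0.12. A second probe set of Ddx58 above the filter did not match the first. It read 1097, 1091 and 1268 against 1575, 1426 and 1314, so the populations did not overlap there, and its difference was 0.32 ± 0.14 in a fit of every probe set (adjusted p = 0.853).

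Mx1 is the gene whose promoter drives Cre in these mice, and the common laboratory strains carry a defective allele of it. It read 290, 175 and 258 in restored-labelled and 270, 172 and 242 in knockdown-labelled cells. The knockdown-labelled array was the lower of the pair in each mouse, by 0.099, 0.022 and 0.083, and the difference of -0.068 ± 0.071 did not pass (adjusted p = 0.815). It was -0.16 after quantile normalization, -0.12 with centred arrays and -0.091 without mouse 279. A fit to 5 arrays, without the restored-labelled one of mouse 279 and with no mouse term, gave -0.27. There the low knockdown-labelled array of mouse 279 has no partner, so this value also holds the difference between mice. The spread between mice was larger than that between populations, since both arrays of mouse 279 lay below all others. Mx2, its neighbour and relative, read 40.5, 42.7 and 41.8 against 51.0, 54.5 and 13.3, all under the filter intensity of 143.

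The IFIT genes, which encode proteins that bind foreign RNA ends, shared a pattern over the mice. Ifit1 read 1061, 720 and 1113 in restored-labelled and 1636, 1451 and 1050 in knockdown-labelled cells. The single mice gave 0.62, 0.996 and -0.084, so mouse 281 did not share the sign of mice 278 and 279. The fitted difference of 0.51 ± 0.23, or 1.42-fold, was the largest of any member and did not pass (adjusted p = 0.771). It was 0.27 without mouse 279, 0.81 without mouse 281 (unadjusted p = 0.0068) and 0.32 when only the restored-labelled array of mouse 279 was dropped, together with the mouse term. Ifit2 and Ifit3 gave 0.0035 ± 0.096 and 0.024 ± 0.14. Both also stood higher in mice 278 and 279 and lower in mouse 281, at -0.18 and -0.30.

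The OAS genes encode enzymes and relatives that sense double-stranded RNA, and their active members switch on RNase L. Oas3 read 1154, 1098 and 1039 in restored-labelled cells. In knockdown-labelled cells it read 1410, 1368 and 1161, so that the lowest of these lay just above the highest restored-labelled array. The difference of 0.25 ± 0.077 (1.19-fold) was positive in each mouse, at 0.29, 0.31 and 0.16, and had an unadjusted p of 0.0309 and an adjusted p of 0.771. It ranged from 0.22 to 0.30 when each mouse was left out and was 0.25 on 5 arrays, with no mouse term and the restored-labelled array of mouse 279 left out. In each of these limma fits the unadjusted p of Oas3 lay between 0.067 and 0.22. The other OAS members had smaller or opposite differences, whose distance from that of Oas3 was not tested. Oas2 and Oas1a differed by -0.19 ± 0.22 and -0.097 ± 0.12, and Oasl1 and Oasl2 by 0.13 ± 0.10 and 0.11 ± 0.087. Of the 5, 3 were higher and 2 lower.

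Genes of ubiquitin-like and ADP-ribose modification tended upward by small amounts. Of 6 tested, 5 were higher, with a median of 0.12. Usp18, which encodes the protease that removes ISG15 and damps the receptor, read 988, 929 and 825 against 1037, 1002 and 976. It differed by 0.14 ± 0.078, upward in each mouse and 0.088 without mouse 281. Dtx3l, a ubiquitin ligase, read 5781, 5258 and 5780 against 6171, 6045 and 6086. Its partner Parp9 read 1598, 1533 and 1463 against 1623, 1610 and 1740. The populations did not overlap at either gene, yet the differences of 0.12 ± 0.074 and 0.11 ± 0.085 stayed at adjusted p of 0.771 and 0.784. Parp9 gave 0.046 without mouse 281 and Dtx3l 0.078 in the fit to 5 arrays. A second Dtx3l probe set gave 0.15, with overlap. With centred arrays Usp18, Dtx3l and Parp9 stood at 0.086, 0.071 and 0.061. Trim30a, a TRIM protein gene, differed by 0.20 ± 0.12, Trim25, the ligase that activates RIG-I, by 0.031 ± 0.11, and Parp14 by -0.015 ± 0.079.

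Among genes whose products block viral entry, release or nucleic acids, 6 of 7 were higher, with a median of 0.12. Ifitm1, which encodes a membrane protein that stops viral fusion and is known as a marker of primitive hematopoietic cells, read 8129, 8425 and 7575 against 9421, 8979 and 8858. Its difference of 0.18 ± 0.075 (1.13-fold) had an adjusted p of 0.771, and the populations did not overlap. The neighbouring family member Ifitm3 read 10490, 11605 and 10139 against 10967, 10847 and 10964, a difference of 0.026 ± 0.082.

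Samhd1, which encodes an enzyme that removes nucleotides needed by viruses, read 4525, 4542 and 4663 against 4879, 5057 and 4974. It too did not overlap, with a difference of 0.12 ± 0.070. Its 4 other probe sets above the filter overlapped, at 0.038, 0.12, 0.10 and 0.0058. Eif2ak2, the gene of the RNA-dependent kinase PKR, read 3271, 2338 and 3365 against 3509, 2961 and 3468. Its difference of 0.16 ± 0.094 was 0.072 without mouse 279 and -0.0065 in the same fit to 5 arrays, which also has no mouse term. Rsad2, which encodes viperin, read 2631, 1728 and 2432 against 3272, 2617 and 1994, at 0.21 ± 0.20, and had the signs of Ifit1 in the single mice. Bst2, which encodes tetherin and also marks plasmacytoid dendritic cells, was the member of this group on the lower side, at -0.093 ± 0.15, with 0.24 in mouse 281 and -0.40 in mouse 279. Zbp1, a sensor of Z-form nucleic acids, gave 0.077 ± 0.12.

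The interferon-inducible GTPases, which act against pathogens inside vacuoles, were split, with 2 of 4 higher and a median of 0.0034. Gbp2, Gbp3, Igtp and Irgm1 differed by 0.042 ± 0.069, -0.11 ± 0.098, -0.035 ± 0.097 and 0.057 ± 0.073. Gbp2 lay higher in each mouse at its brighter probe set, but a second probe set read 1346, 1544 and 1427 against 1220, 1425 and 1079 and lay lower in each, at -0.22 ± 0.12. The probe sets of a GTPase family with close paralogs may read more than 1 gene, so the direction of Gbp2 is uncertain.

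Of the remaining induced genes, Rtp4 and Xaf1 stood on the higher side in every mouse. Rtp4, which encodes a receptor chaperone strongly induced by interferon, read 2374, 2304 and 2160 against 2705, 2537 and 2496, without overlap and with a difference of 0.18 ± 0.070 (adjusted p = 0.771). Its second probe set gave 0.36. Xaf1, a gene of apoptosis control, read 2572, 2010 and 2392 against 2808, 2597 and 2570 and differed by 0.20 ± 0.091. This was 0.11 without mouse 279 and 0.098 in the fit to 5 arrays. Ifi27 read 4893, 5169 and 4498 against 4553, 4346 and 4329 and was lower in each mouse, at -0.14 ± 0.080. Ifi35 and Sp100 gave -0.15 ± 0.12 and 0.059 ± 0.083.

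Counting members without any overlap between populations gave 6 on the higher side (Oas3, Dtx3l, Parp9, Ifitm1, Samhd1 and Rtp4) and 0 on the lower, where 10.1% and 5.08% of all genes did so. The count depends on the scaling. After quantile normalization there were 4 higher and 2 lower, against 7.16% and 8.92% of all genes, and with centred arrays 1 higher and 2 lower, against 4.25% and 10.99% of all genes. Ifitm1 was the member without overlap under each of these scalings, and Ifi27 and Ifi35 were the lower ones after quantile normalization and with centred arrays. Among all genes the share of unadjusted calls that were higher also turned with the scaling, from 67.9% to 35.5% and 32.5%.

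**Figure D2:**
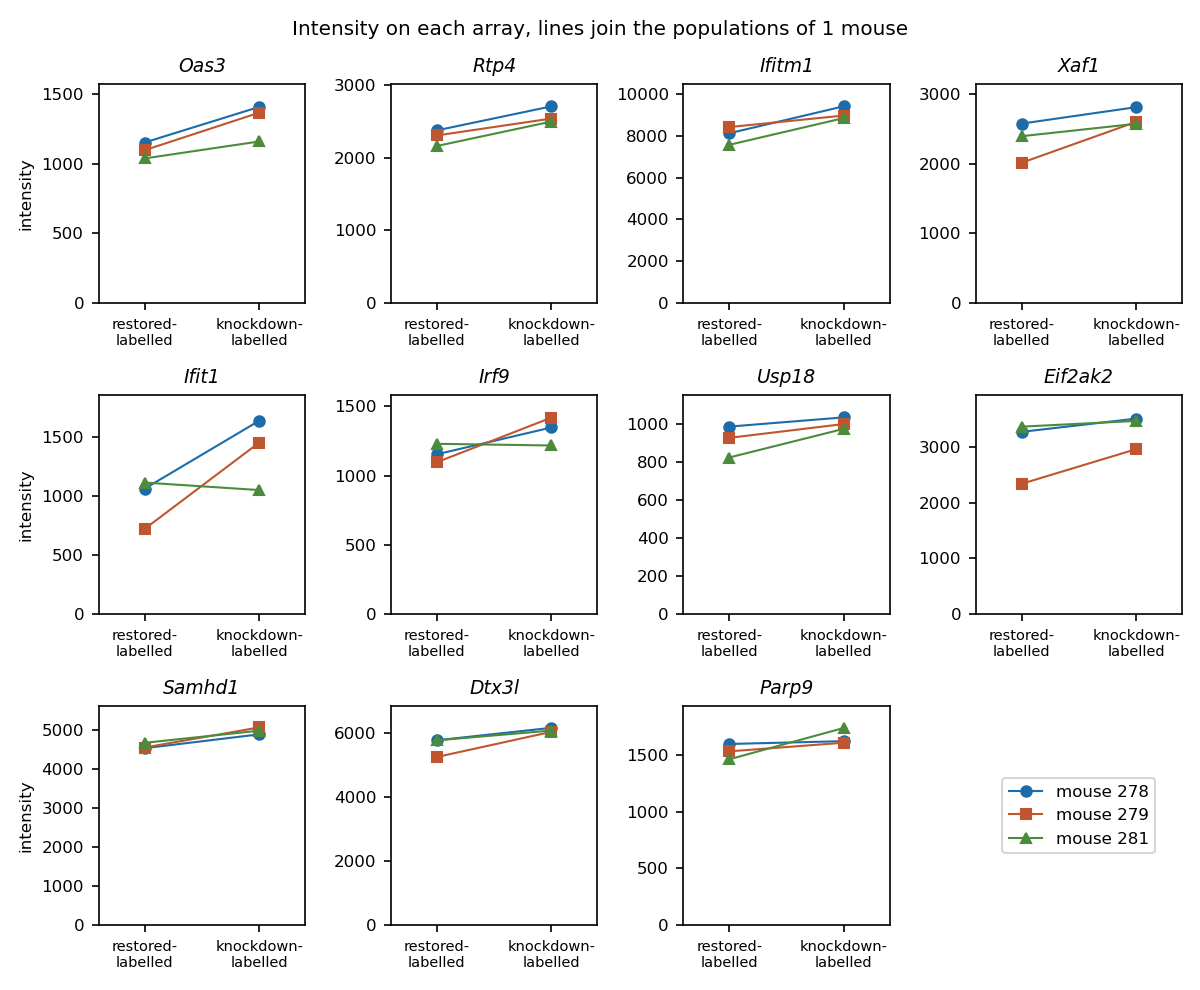
Intensity (vertical axis, from 0) of 11 members in the restored-labelled and knockdown-labelled cells, with 1 line per mouse. These are the 6 members whose populations did not overlap and the 8 with the smallest unadjusted p, which share 3 genes; Ifit1 and Irf9 are lower in the knockdown-labelled cells of mouse 281, and all other lines point upward.

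The pattern over mice separates members that look alike in the mean. In mouse 278 30 of the 40 members were higher in the knockdown-labelled cells, in mouse 279 24 and in mouse 281 23, against 58.7%, 44.8% and 57.9% of all genes. The median member differed by 0.080, 0.080 and 0.026 in these mice, and the median gene by 0.031, -0.044 and 0.032. Members higher in all 3 mice numbered 11 (27.5%, against 19.8% of all genes), and those lower in all 3 were Mx1 and Ifi27 (2 of 40, against 12.4% of all genes). A further 8 members were higher in mice 278 and 279 and lower in mouse 281 (20.0%, against 14.2% of genes): Irf9, Ifit1, Ifit2, Ifit3, Oasl2, Trim30a, Rsad2 and Zbp1. By contrast, Irf1, Bst2 and Ifi35 were lower in mice 278 and 279 and higher in mouse 281 (7.5%, against 18.2% of genes). These groups were read off the values and carry no test. Some signs rest on values near 0. In mouse 281 Trim30a, Irf9, Oasl2 and Ifi35 gave -0.0038, -0.014, -0.031 and 0.020. A second Trim30a probe set above the filter had another pattern, at 0.11, -0.042 and 0.31 in the single mice.

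**Figure D3:**
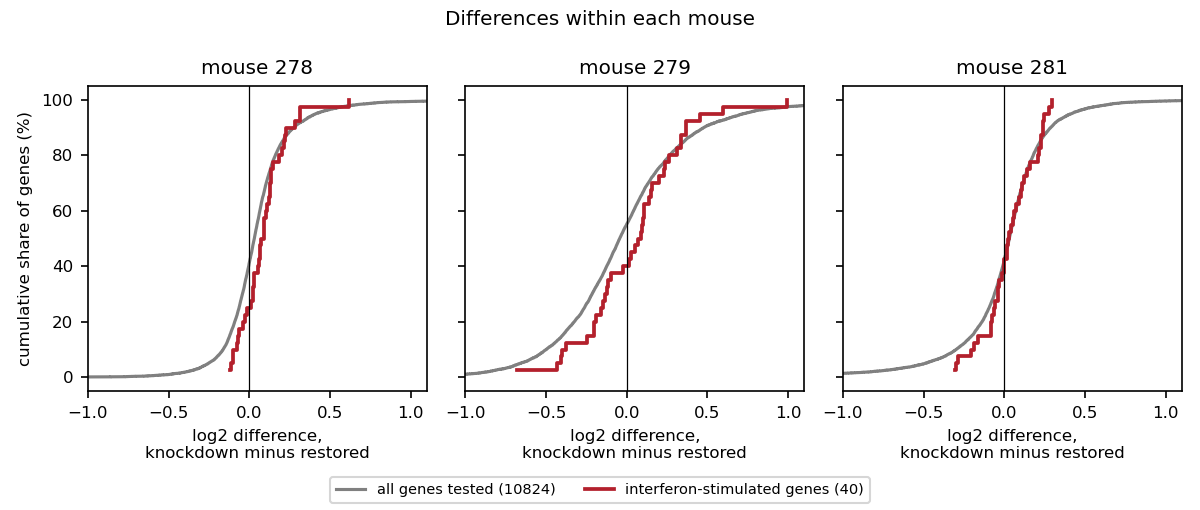
Cumulative share of genes (vertical axis, percent) by their difference within 1 mouse (horizontal axis, knockdown-labelled minus restored-labelled, log2(intensity + 16), shown from -1 to 1.1). The curve of the 40 members lies to the right of that of all 10824 genes near 0 in mice 278 and 279, where the medians are 0.080 against 0.031 and 0.080 against -0.044, and along it in mouse 281.

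A separate question is whether the animals differed in their interferon-stimulated genes whatever the sorted population, which a moderated F test over the mouse terms of the same limma fit addressed. No member passed (0 of 40 at adjusted p of 0.05, and 0% of all genes), and 3 of the 40 stood at unadjusted p below 0.05, where 5.37% of all genes did. These were Mx1 (unadjusted p = 0.00406, adjusted p = 0.785), Ifit3 (0.0210 and 0.820) and Stat2 (0.0239 and 0.820). The mean intensity of Mx1 over the 2 arrays of a mouse was 280 in mouse 278, 173 in mouse 279 and 250 in mouse 281. Ifit3 kept this order, with 343, 189 and 252. Stat2 had the reverse order, with 338, 517 and 410. In all 3 genes the pairs of arrays did not overlap between mice.

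Further down that ranking, Eif2ak2 was lowest in mouse 279 (2649, against 3390 and 3417), and Oasl1 highest there (497, against 413 and 380). Dhx58 was lowest in mouse 281 (461, against 597 and 625). Mouse 278 lay above both other mice without overlap in 5 of the 40 members and below them in 1, where 6.45% and 6.48% of all genes did so. Mouse 279 lay above in 5 and below in 4 (11.2% and 5.25% of all genes), and mouse 281 above in 0 and below in 6 (2.34% and 5.84%). With each animal represented by 2 arrays, and the 3′ over 5′ ratio of 1 of those of mouse 279 apart from the rest, the part of that array in these orders was not tested.

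**Figure D4:**
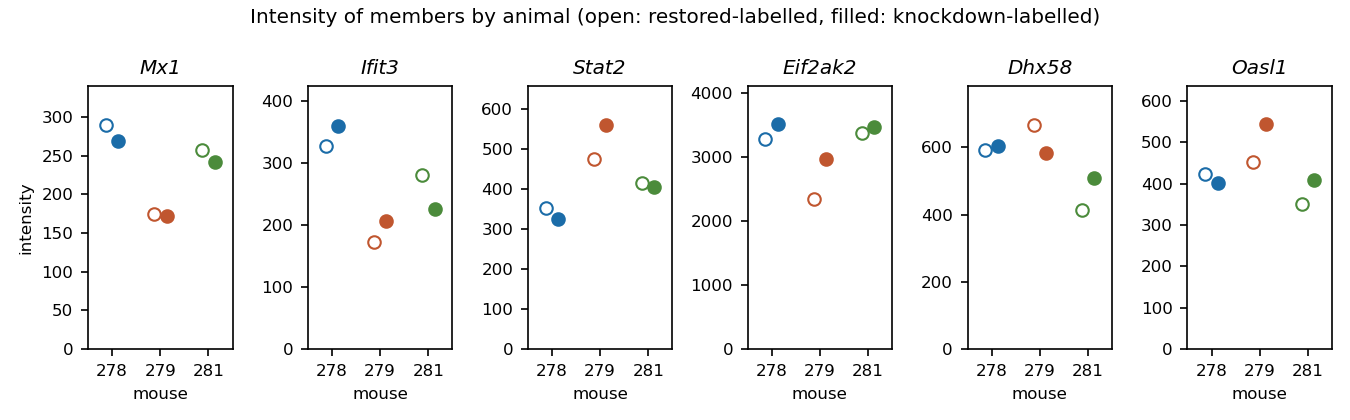
Intensity (vertical axis, from 0) by mouse (horizontal axis) for the 6 members with the smallest unadjusted p between animals, open points for restored-labelled and filled for knockdown-labelled cells. Both arrays of mouse 279 lie lowest for Mx1 and Ifit3, with means of 173 and 189, and highest for Stat2, with a mean of 517.

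Other genes of the pathway did not show a common direction. Of 39 genes of interferon signalling and sensing, 26 passed the filter, of which 10 were higher and 16 lower (median -0.032). In limma 0 were called in either direction at adjusted or unadjusted p of 0.05. At the unadjusted threshold 3.96% of all genes stood on the higher and 1.88% on the lower side. The genes for the interferons themselves, Ifna1, Ifna2, Ifna4 and Ifnb1, lay below the filter. The 3 with the smallest unadjusted p were Ikbke, the gene of a kinase that activates IRF3, at -0.33 ± 0.14, Traf6, an adaptor of Toll-like receptor signalling, at 0.17 ± 0.078, and Pias1, the gene of a SUMO ligase, at 0.24 ± 0.11. Among 63 further interferon-induced genes, 46 passed the filter and 28 of them were higher (median 0.025). In that list 1 of the 46 genes, Epsti1, stood at unadjusted p below 0.05, beside the same shares of all genes. Epsti1 differed by 0.25 ± 0.080 (limma, unadjusted p = 0.0354, adjusted p = 0.771), followed by Parp11 at 0.25 ± 0.10 and Ifi27l2a at 0.23 ± 0.093.

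The interferon-induced genes of antigen presentation were mostly lower, by an amount that depends on mouse 279. Of 14 tested, 3 were higher and 11 lower, with a median of -0.11 that was -0.063, -0.17 and 0.018 in the single mice. The class II chain gene H2-Ab1 read 4895, 5415 and 5302 in restored-labelled and 4472, 4722 and 4233 in knockdown-labelled cells, without overlap, at -0.22 ± 0.080 (limma, adjusted p = 0.771). The immunoproteasome gene Psmb8 read 5494, 5949 and 5295 against 5282, 4889 and 4889, at -0.15 ± 0.084, and H2-Aa gave -0.24 ± 0.13. None of the 14 was called. For these genes the restored-labelled array of mouse 279 was the highest, its median deviation from the gene means being 0.11. Without mouse 279 the median difference of the list was -0.017, with 6 of 14 higher, and in the fit to 5 arrays -0.055, with 4 of 14 higher, both chosen after seeing the data.

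The LSK gate removes cells with lineage markers, which mature neutrophils, B cells and macrophages carry. Transcripts that mark other cells nevertheless differed between arrays, and their part in the results above was not tested. Sums over the 8 LSK markers also stood apart, at 37730 to 38167 in restored-labelled and 38754 to 41572 in knockdown-labelled cells. Of these 8, 6 were higher in each mouse, where 19.8% of all genes were. The other 2 were lower in the fitted difference. Over the 8 markers it ran from -0.50 to 0.27, with a median of 0.080. The summed intensity of 11 B-cell and plasma-cell markers was 14457 to 16821 in restored-labelled and 19319 to 21908 in knockdown-labelled cells, without overlap, while Cd79a, Ebf1, Ms4a1 and Pax5 lay below the filter and Pax5 was listed at 0 on 1 array. Of the 7 tested markers of that list 5 were higher (median 0.59), and Cd79b was lower in each mouse, at -0.11. On the higher side 3 of the 7 stood at unadjusted p below 0.05 in limma, where 3.96% of all genes did. The summed intensity of 9 mature neutrophil markers was 16709 to 44564 against 24232 to 49389. The values 16709 and 49389 were the 2 arrays of mouse 279. Of the 8 tested neutrophil markers 7 were higher in the fitted difference (median 0.63), but the mice did not share this direction. Their median was -0.089 in mouse 278, 2.48 in mouse 279 and -0.52 in mouse 281, with 3, 8 and 1 of the 8 higher. For 11 macrophage and monocyte markers the summed intensity was 5251 to 7822 against 3842 to 6475, with C1qa, C1qc, Fcgr1 and Mertk below the filter. All 7 tested macrophage and monocyte markers were lower in the fitted difference (median -0.38), but here too the mice did not share the direction. The median was -0.26 in mouse 278, 0.74 in mouse 279 and -1.42 in mouse 281, with 1, 5 and 0 of the 7 higher. Only 2 of the 7 were lower in each mouse. The complement gene C1qb, at -1.39, and Csf1r, a receptor gene of the macrophage lineage, at -0.40, made up the 2 with an unadjusted p below 0.05 in limma. Of all genes, 1.88% stood there on the lower side. The sum of 10 plasmacytoid dendritic cell markers was 12059 to 15567 against 13473 to 15779, with Cd209d, Pacsin1 and Siglech, which defines these cells, below the filter (Siglech at 51.8 to 88.7). Of the 7 tested markers in that list 4 were higher, and Ly6d, a surface protein gene also used for lymphoid cells, was the member at unadjusted p below 0.05, at 1.39 (limma, adjusted p = 0.771). Ccr9, a chemokine receptor gene, gave 1.12, without overlap. In sorted cells measured in bulk, fewer cells with a transcript and less of it per cell cannot be told apart.

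Members were also set side by side by the motifs in their promoters, as a description with no test. The 16 tested members with the letters had a median difference of 0.030 and 11 of them were higher, and the 15 without had a median of 0.065 and 11 higher. Both groups held members near 0 and members on either side, from -0.11 to 0.51 with the letters and from -0.15 to 0.20 without. For the gamma-activated site core, the 11 members with the letters had a median of -0.035 and 5 higher, and the 20 without had a median of 0.087 and 17 higher.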

How the data were processed

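LSK cell RNA was purified on Qiagen columns, amplified with the NuGEN Ovation V2 system and read on Affymetrix mouse expression arrays, per the labels' protocols. The authors deposited 1 linear intensity per array for each of 45101 probe sets; how they corrected background and normalized is not stated in the labels. Of the probe sets, 64 controls were left out; 34945 are named by 1 symbol, 932 by several and 9160 by none. All 41 members with a probe set kept their symbol in the GRCm38.p6 gene table. Intensities were taken to log2(value + 16), which understates changes of dim genes. The 10824 genes above the filter were fitted with limma 3.58.1 in R 4.3.3 (mouse as a fixed block, Benjamini-Hochberg). The fit was also run on simulated data with independent noise of its own fitted variances. Such data share the assumptions of the fit, so that run does not show how the fit behaves on these arrays. Pairing comes from the labels: both populations are from the same mouse. Same-mouse correlations of deviations from the group means were 0.44, -0.17 and -0.29 over all genes. Members, lists and the rule for named genes (members by role, without overlap, smallest p between populations or mice, or with disagreeing probe sets, and 3 genes per pathway list) were chosen with earlier results of these data known. Figures used matplotlib 3.10.9.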

Additional observations from a re-analysis of the deposited data

How the results depend on the processing

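No member passed an adjusted p of 0.05 in limma, between populations or between mice, under any of the alternatives run. At unadjusted p below 0.05 the main analysis gave 1 of 40 members between populations, and 632 of all 10824 genes. The member count was 3 with no replicate block and with a random block (634 of all genes in each). It was 0 after quantile normalization and with centred arrays (709 and 717 of all genes). A filter keeping the brightest 30% gave 2 members (466 of the genes then tested), and no filter gave 0 (1083). The count was 0 to 2 when a mouse or the restored-labelled array of mouse 279 was left out (258 to 723 of all genes). In limma with trend and robust options the 1 member was Ifitm1 (unadjusted p = 0.0057), not Oas3 (0.080). Without the restored-labelled array of mouse 279 it was again Ifitm1 (0.024), not Oas3 (0.073). The median member difference of 0.044 was -0.0081 with centred arrays and kept its sign elsewhere. The named members kept their direction in 308 of 337 alternatives. Many of these could not turn a sign, so the share overstates how stable the directions are. Omitting the replicate block or making it random, changing the filter, and the trend and robust options leave the fitted difference of a gene unchanged. The mean over probe sets also leaves it unchanged for members with 1 probe set above the filter. Opposite signs arose for Stat2, Ifit3 and Dhx58 after quantile normalization (-0.068, -0.068 and -0.028) and with centred arrays (-0.025, -0.028 and -0.0069), where Gbp2 was -0.0094. The mean over probe sets gave 0.15 for Ddx58, 0.13 for Parp14 and -0.088 for Gbp2, and array weights -0.046 for Ifit3 and 0.0020 for Parp14. Other probe sets gave 0.00027 for Ifnar2, -0.048 for Eif2ak2, 0.32 for Ddx58, 0.27 for Parp14 and -0.22 for Gbp2. Leaving out a mouse gave -0.084 to 0.19 for Ifit3, -0.077 to 0.098 for Stat2, -0.099 to 0.036 for Irf7, -0.081 to 0.16 for Dhx58, -0.088 to 0.031 for Ddx58 and -0.049 to 0.038 for Parp14. Leaving out that array and the mouse term gave -0.23 for Ifit3, 0.036 for Ddx58, 0.041 for Parp14 and -0.0065 for Eif2ak2. In that fit the knockdown-labelled array of mouse 279 has no partner, so differences between mice enter the values. The cause of these turns was not tested. With 3 mice, the number of arrays limits what could be called.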
